A study of Mus musculus with 4 samples.

Results

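The 37 genes described here are imprinted genes of the mouse. They were chosen by symbol from the 24347 gene entries of the data, in which all 37 were listed, and were grouped into 16 imprinted domains. Expression had been measured by RNA-seq in embryoid bodies (EBs), which are clumps of differentiating mouse embryonic stem cells (mESCs). The EBs were collected at day 3 in serum medium without LIF, the cytokine that holds mESCs in self-renewal. WT EBs (WT 1 and WT 2) were compared with EBs of mESCs in which the promoter of *Gm11549*, the gene of the micropeptide NEMEP, had been deleted (promoter KO 1 and promoter KO 2), and all 4 samples were of the 129/Ola strain. The promoter KO lines had been grown from single sorted cells, and the sources used here do not say which line gave which sample. The study calls the 2 samples of each genotype biological replicates, while the labels do not say whether they were separate cultures. The p-values measure only the spread between these samples, pooled in part over genes of similar level. Part of that spread may be technical.

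Values are FPKM, in which fragment counts are divided by transcript length and by the total mapped. They were compared as log2(FPKM + 1), a scale that understates the change of genes with low values. The depth that the lowest values give was about 24500000 fragments for WT 1 and 21800000 for WT 2, then 21500000 for promoter KO 1 and 20000000 for promoter KO 2, if fragments were 200 bases long. The targeted gene was low throughout. *Gm11549* stood at 0.750 FPKM in WT 1 and 0.522 FPKM in WT 2, while promoter KO 1 was at 0 and promoter KO 2 at 0.0659 FPKM. The promoter KO samples were thus the 2 lowest.

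The labels call the cells ES-derived mesendoderm. All 15 mesendoderm markers reached 1 FPKM in both WT samples, and 13 and 14 of them did so in promoter KO 1 and promoter KO 2. *T*, with the highest mean over the 4 samples, stood at 306 and 448 FPKM in WT and at 50.5 and 127 FPKM in promoter KO. In promoter KO 1, *Nodal*, at 117 FPKM, and *Eomes*, at 56.3 FPKM, exceeded it. The summed level of the 15 markers was 1130 and 1374 FPKM in WT 1 and WT 2. It was 339 FPKM for promoter KO 1 and 539 FPKM for promoter KO 2. At a limma adjusted p under 0.05, 8 of the 15 were lower in promoter KO and 1, *Nodal*, was higher. The largest differences were those of *Mesp1*, *Lhx1*, *Mixl1*, *Evx1*, *Gsc* and *T*, although *T* did not pass (adjusted p = 0.0509). The EBs also held pluripotency transcripts. *Pou5f1*, with the highest mean of 16 such markers, stood at 1499, 1188, 1522 and 1545 FPKM in WT 1, WT 2, promoter KO 1 and promoter KO 2. Only in promoter KO 1 was another marker, *Dppa5a*, higher, at 1833 FPKM. In bulk RNA, fewer cells of a type and less RNA per cell cannot be told apart.

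In genomic imprinting, marks set in the egg or the sperm leave a gene active mainly on the allele from 1 parent. Imprinted genes lie in clusters, each governed by a control region whose methylation differs between the alleles, and many clusters hold a long noncoding RNA expressed from the allele on which the neighbouring protein genes are silent. Several of these genes act on growth of the embryo and placenta, with paternally expressed genes often promoting it and maternally expressed genes often restraining it. Cultured mESCs can lose or gain methylation at single domains, and clones of 1 line can differ in it. FPKM does not tell the alleles apart, so allelic expression and methylation were not measured here.

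The zinc finger protein ZFP57 binds methylated TGCCGC at many imprint control regions and keeps the methylation there. This motif was searched on both strands, as TGCCGC or its reverse complement GCGGCA, in the RefSeq promoter windows of GRCm38.p6, which run from 250 bases before a start site to 50 bases after it. Of the 37 genes, 28 had windows, 41 in all, and some windows of a gene overlapped. The motif was in 10 of the 41 windows (24.4%), from 9 genes, and in 11.6% of all 32851 windows. The median window held 14 CpG dinucleotides for the imprinted genes and 7 for all windows. Of the 9 genes, 4 are shown, chosen after their values were seen: *Nnat* and *Grb10*, whose differences between genotypes were the largest, *Snrpn*, which was high in 1 sample, and *Meg3*, whose samples overlapped between genotypes. Capitals mark the motif, each sequence is written 5′ to 3′ on the strand of its gene, and a match is a description of the letters only.
*Nnat*, chr2:157559828-157560127, plus strand, 17 CpG: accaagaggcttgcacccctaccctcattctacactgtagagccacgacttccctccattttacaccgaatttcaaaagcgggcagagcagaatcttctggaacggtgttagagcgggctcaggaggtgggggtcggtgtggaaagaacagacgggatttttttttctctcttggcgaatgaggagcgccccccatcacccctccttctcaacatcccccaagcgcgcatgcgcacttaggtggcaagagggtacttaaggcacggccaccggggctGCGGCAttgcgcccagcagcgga
*Grb10*, chr11:12037371-12037670, minus strand, 45 CpG: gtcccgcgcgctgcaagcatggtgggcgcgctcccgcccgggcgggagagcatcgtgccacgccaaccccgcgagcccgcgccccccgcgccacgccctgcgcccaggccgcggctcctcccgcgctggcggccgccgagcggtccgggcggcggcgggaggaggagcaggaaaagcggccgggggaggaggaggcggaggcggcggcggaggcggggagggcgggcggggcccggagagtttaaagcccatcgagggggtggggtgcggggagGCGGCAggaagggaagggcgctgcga
*Snrpn*, chr7:60005150-60005449, minus strand, 7 CpG: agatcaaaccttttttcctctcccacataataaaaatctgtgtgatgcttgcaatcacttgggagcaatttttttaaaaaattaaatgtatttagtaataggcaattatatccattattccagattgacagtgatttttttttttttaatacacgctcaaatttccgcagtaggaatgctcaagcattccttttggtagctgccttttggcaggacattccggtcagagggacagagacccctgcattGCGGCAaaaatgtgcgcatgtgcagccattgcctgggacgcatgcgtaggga
*Meg3*, chr12:109540746-109541045, plus strand, 13 CpG: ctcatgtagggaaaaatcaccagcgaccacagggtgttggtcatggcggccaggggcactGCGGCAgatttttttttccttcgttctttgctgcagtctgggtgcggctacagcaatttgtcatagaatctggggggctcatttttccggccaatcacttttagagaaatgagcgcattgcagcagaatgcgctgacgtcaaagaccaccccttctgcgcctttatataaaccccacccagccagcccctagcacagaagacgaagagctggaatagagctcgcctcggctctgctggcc
*Grb10* and *Meg3* each had 1 further window and *Snrpn* had 3, all without a match.

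Of the 37 genes, 27 from 14 domains had 1 FPKM or more in 2 or more samples and were tested. The abundant ones were *Gnas*, *Snrpn*, *Phlda2*, *Rian* and *Meg3*, and the other 10 stayed below the filter. By limma, 0 of the 27 genes differed between genotypes at a Benjamini-Hochberg adjusted p under 0.05. Of all 11941 genes tested, 3.58% did so, 1.68% higher and 1.89% lower in promoter KO. At an unadjusted p under 0.05, 13 of the 27 passed, 7 higher and 6 lower in promoter KO, where 30.6% of all tested genes did. The smallest adjusted p was 0.0523, for *Nnat*. The genotypes did not overlap in 15 of the 27 genes, 8 higher and 7 lower, which is 55.6% of them, and in 65.3% of all tested genes. The median log2 fold change was 0.10 for the 27 genes and 0.0042 for all tested genes. The 95% interval of the difference lay within 1 log2 unit of 0 in 15 of the 27 (55.6%) and in 87.8% of all tested genes, so the imprinted genes were bounded less closely. The count of 0 rested on the libraries used. Without WT 1 it was 1 (*Peg3*), beside 175 of all tested genes, and without promoter KO 2 it was 3 (*Gnas*, *Grb10* and *Snrpn*), beside 486. It was 0 without WT 2 or without promoter KO 1, when no gene of the 11941 passed, although 10 and 11 of the 27 (37% and 40.7%) had an unadjusted p under 0.05 in limma, against 15.7% and 16.8% of all tested genes. With the replicate block it was 5, beside 1202 of all tested genes, and at a fold change over 2 with an unadjusted p under 0.05 it was 2, beside 362. For a single gene, an exact permutation test of 2 samples against 2 cannot give a two-sided p below 0.333.

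**Figure D1:**
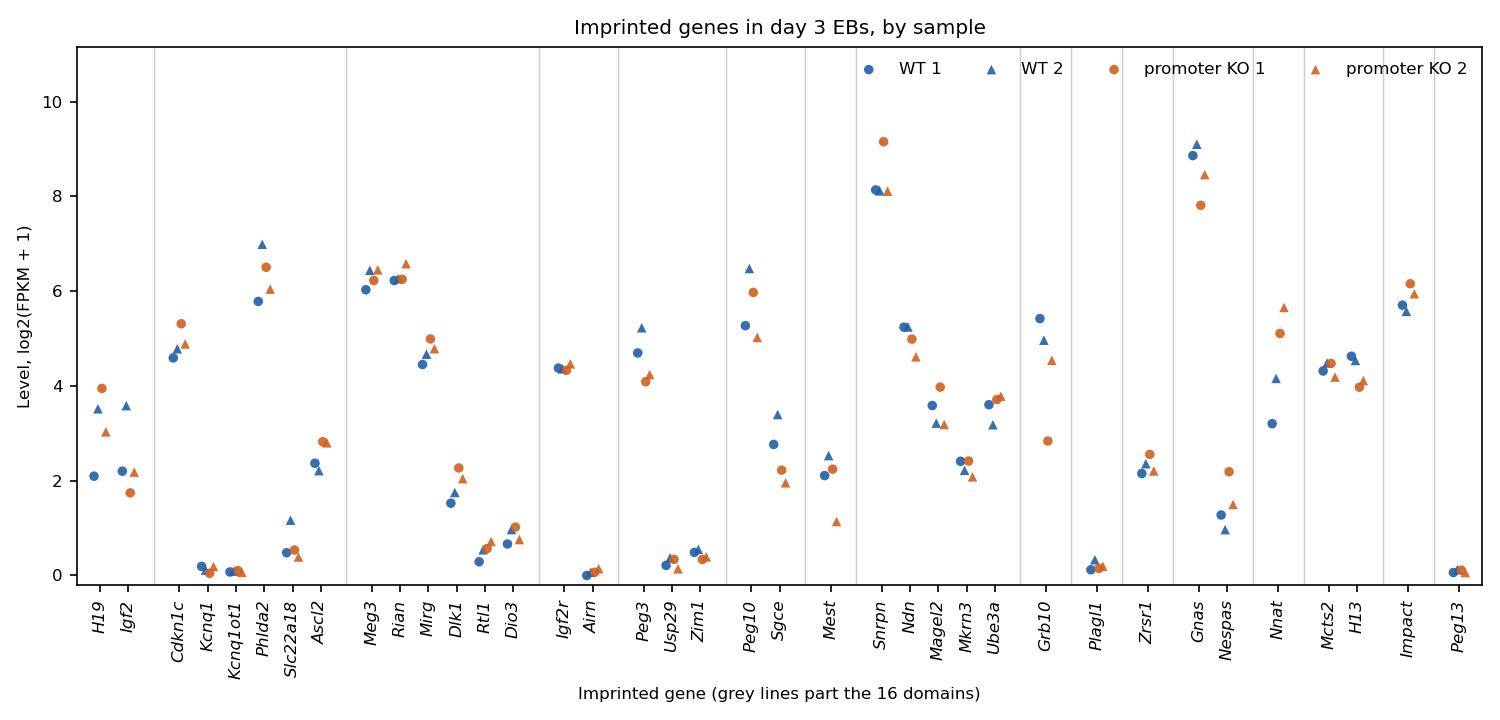
Level of each of the 37 imprinted genes as log2(FPKM + 1), with 1 point per sample (blue, WT; orange, promoter KO; circles, sample 1; triangles, sample 2) and grey lines between domains. *Snrpn* and *Grb10* of promoter KO 1 stand away from the other 3 samples, and 10 genes lie near the floor.

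**Figure D2:**
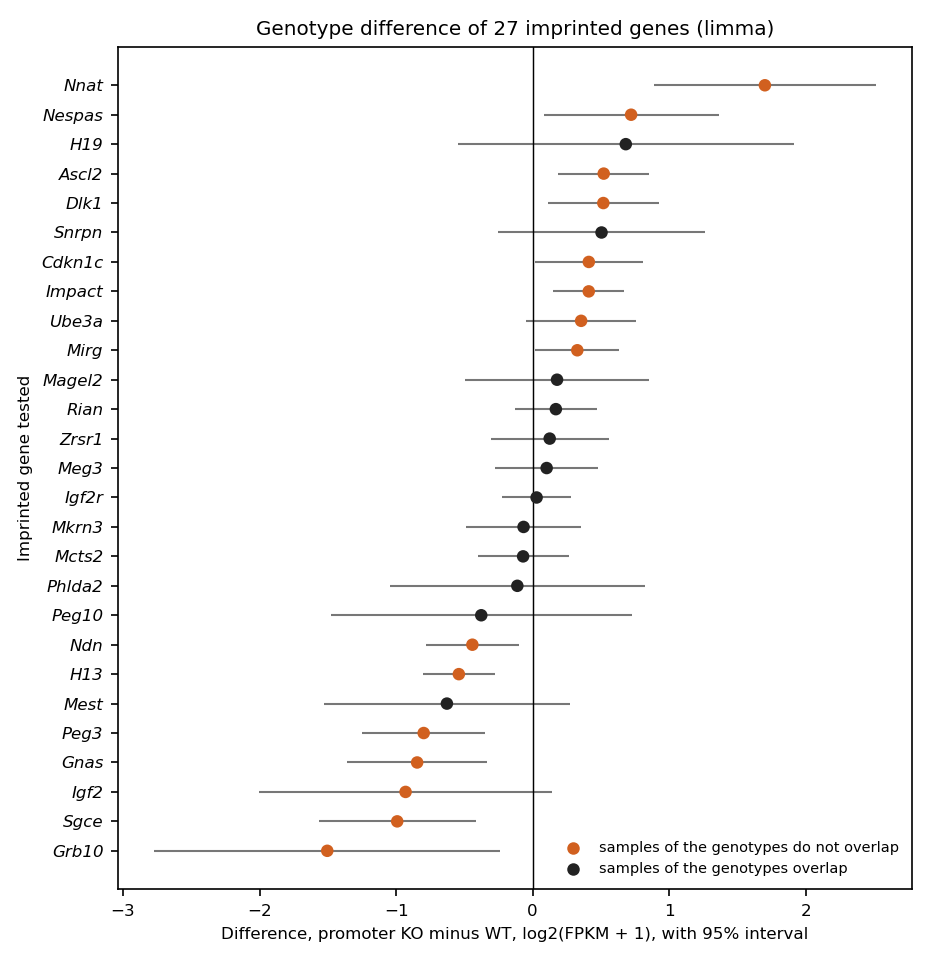
Difference between genotypes of the 27 tested genes on the log2(FPKM + 1) scale, promoter KO minus WT, with the 95% interval from limma (2 samples per genotype). Orange points are the 15 genes whose samples do not overlap between genotypes, from *Nnat* at 1.70 to *Grb10* at -1.50, and black points are those that overlap.

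The first group of domains holds the growth factor IGF2 and its partners. *H19*, a maternally expressed noncoding RNA, stood at 3.27 and 10.5 FPKM in WT and at 14.4 and 7.18 FPKM in promoter KO. The genotypes overlapped, since WT 2 was above promoter KO 2, and the log2 fold change was 0.68 ± 0.50 (SE), with an adjusted p of 0.387. *Igf2*, which is expressed from the paternal allele of the same domain, stood at 3.60 and 11.0 FPKM in WT and at 2.35 and 3.54 FPKM in promoter KO. WT 2 was high and the other 3 samples lay close together, so that the genotypes did not overlap by a narrow margin (log2 fold change -0.93, adjusted p = 0.209). Without WT 2 the log2 fold change was -0.24, and without WT 1 it was -1.62. Its antisense RNA *Igf2os*, looked up after the values were seen, was also highest in WT 2, at 0.690 FPKM against 0.0875 to 0.257 FPKM elsewhere. The RNAs overlap on opposite strands, and whether *Igf2os* is a separate measurement is not known, since reads in the overlap cannot be told apart.

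*Igf2r*, the maternally expressed receptor that clears IGF2, was the steadiest member. It stood at 19.8 and 19.6 FPKM in WT and at 19.1 and 21.1 FPKM in promoter KO, with an overlap. The log2 fold change was 0.03, with a 95% interval from -0.22 to 0.28 (adjusted p = 0.870). *Airn*, the paternally expressed RNA antisense to *Igf2r*, was listed at 0 in WT 1 and at 0.0474, 0.0485 and 0.105 FPKM in WT 2, promoter KO 1 and promoter KO 2, and was not tested. *Grb10* encodes an adaptor protein that restrains insulin and IGF signalling, and it is expressed from the maternal allele in most tissues. It stood at 41.9 and 30.3 FPKM in WT, at 22.3 FPKM in promoter KO 2 and at 6.15 FPKM in promoter KO 1. The promoter KO samples were the 2 lowest, but they differed 3.62-fold from each other, more than promoter KO 2 differed from WT. The log2 fold change was -1.50 ± 0.52 (SE), with a 95% interval from -2.77 to -0.24 and an adjusted p of 0.123. It was -0.65 without promoter KO 1 (adjusted p = 0.256) and -2.36 without promoter KO 2 (adjusted p = 0.0312).

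The Kcnq1ot1 domain lies next to *Igf2* on chromosome 7. *Cdkn1c* encodes p57, an inhibitor of cyclin-dependent kinases, and stood at 23.1 and 26.6 FPKM in WT and at 38.8 and 28.6 FPKM in promoter KO. The genotypes did not overlap, and the log2 fold change of 0.41 ± 0.16 (SE) had an adjusted p of 0.153, with 0.20 without promoter KO 1 and 0.62 without promoter KO 2. *Ascl2*, a transcription factor of the placenta, stood at 4.16 and 3.64 FPKM in WT and at 6.07 and 5.96 FPKM in promoter KO, with the 2 promoter KO samples closer to each other than the WT samples (log2 fold change 0.52, adjusted p = 0.0750). *Phlda2*, a growth restrainer in placenta, stood at 54.1 and 126 FPKM in WT and at 89.9 and 65.0 FPKM in promoter KO. The promoter KO samples lay between those of WT. The potassium channel gene *Kcnq1* was below the filter, at 0.0324 to 0.142 FPKM. The paternal RNA *Kcnq1ot1*, which lies antisense within it, stood at 0.0466 to 0.0738 FPKM. *Slc22a18*, a transporter gene, stood at 0.395 and 1.25 FPKM in WT and at 0.452 and 0.310 FPKM in promoter KO, with WT 2 again the highest.

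In the Dlk1-Dio3 domain on chromosome 12, 3 maternally expressed noncoding RNAs follow each other on the same strand, and loss of these RNAs is a known defect of some pluripotent stem cell clones. All 3 were present in each sample. *Meg3* stood at 64.4 and 85.8 FPKM in WT and at 73.8 and 86.4 FPKM in promoter KO, and the genotypes overlapped. Its log2 fold change was 0.10 with a 95% interval from -0.28 to 0.48 (adjusted p = 0.681). *Rian*, which hosts small nucleolar RNAs, stood at 73.8 and 75.8 FPKM in WT and at 75.1 and 94.6 FPKM in promoter KO, and the genotypes overlapped. Its log2 fold change was 0.17, with 0.33 without promoter KO 1 and 0.01 without promoter KO 2. *Mirg*, which hosts miRNAs, stood at 20.9 and 24.5 FPKM in WT and at 30.8 and 26.6 FPKM in promoter KO, and the genotypes did not overlap (log2 fold change 0.33, adjusted p = 0.147, and 0.22 to 0.44 with 1 sample left out). The highest sample exceeded the lowest 1.34-fold for *Meg3*, 1.28-fold for *Rian* and 1.48-fold for *Mirg*.

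The paternally expressed protein genes of that domain were low. *Dlk1*, which encodes a membrane protein related to Notch ligands, stood at 1.88 and 2.37 FPKM in WT and at 3.82 and 3.12 FPKM in promoter KO. The genotypes did not overlap, and the log2 fold change was 0.52 (adjusted p = 0.108). *Rtl1*, a gene derived from a retrotransposon, stood at 0.222 and 0.457 FPKM in WT and at 0.482 and 0.644 FPKM in promoter KO. *Dio3*, which encodes a deiodinase that inactivates thyroid hormone, stood at 0.585 and 0.958 FPKM in WT and at 1.03 and 0.691 FPKM in promoter KO. Both were below the filter.

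Next come domains led by paternally expressed genes. *Peg3*, a zinc finger gene, stood at 24.9 and 36.5 FPKM in WT and at 16.0 and 17.9 FPKM in promoter KO. Both promoter KO samples were below both WT samples. The log2 fold change was -0.80 ± 0.18 (SE), with a 95% interval from -1.25 to -0.35 and an adjusted p of 0.0652, with -0.53 without WT 2 (adjusted p = 0.247) and -1.06 without WT 1 (adjusted p = 0.0495). *Usp29*, which starts beside *Peg3* on the other strand, stood at 0.159, 0.295, 0.265 and 0.103 FPKM in WT 1, WT 2, promoter KO 1 and promoter KO 2. *Zim1*, the maternally expressed zinc finger gene of the domain, stood at 0.402, 0.466, 0.263 and 0.314 FPKM. Neither was tested.

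*Sgce* and *Peg10* start side by side on opposite strands. *Sgce*, which encodes a sarcoglycan, stood at 5.80 and 9.53 FPKM in WT and at 3.67 and 2.88 FPKM in promoter KO. Both promoter KO samples were lower, with a log2 fold change of -0.99 ± 0.24 (SE) and an adjusted p of 0.0670. *Peg10*, a gene derived from a retrotransposon and needed in placenta, stood at 37.7 and 88.1 FPKM in WT and at 61.9 and 31.5 FPKM in promoter KO. The genotypes overlapped, with 1 high and 1 low sample in each (log2 fold change -0.38, 95% interval from -1.48 to 0.73, adjusted p = 0.599). *Mest*, which encodes a hydrolase of mesoderm, stood at 3.31 and 4.78 FPKM in WT and at 3.74 and 1.20 FPKM in promoter KO. Only promoter KO 2 was apart, and its value rested on about 59 fragments (log2 fold change -0.63, 95% interval from -1.53 to 0.27, adjusted p = 0.293). Without promoter KO 2 the log2 fold change was -0.08, and without promoter KO 1 it was -1.18.

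The Snrpn-Ube3a domain on chromosome 7 held 5 members, all tested. *Snrpn*, which encodes a protein of the splicing machinery, stood at 281 and 277 FPKM in WT, at 275 FPKM in promoter KO 2 and at 569 FPKM in promoter KO 1. The genotypes overlapped. The log2 fold change was 0.50 ± 0.31 (SE), with an adjusted p of 0.309. It was -0.02 without promoter KO 1 (adjusted p = 0.927) and 1.03 without promoter KO 2 (adjusted p = 0.0298). *Snurf*, which shares the transcript of *Snrpn*, stood at 15.6, 15.5, 31.2 and 14.8 FPKM in WT 1, WT 2, promoter KO 1 and promoter KO 2. *Snhg14*, the noncoding RNA that continues from *Snrpn* across *Ube3a*, stood at 36.5, 35.5, 73.8 and 43.4 FPKM and was looked up after the values of *Snrpn* had been seen. For all 3, promoter KO 1 was the highest sample, 2.06-fold above promoter KO 2 for *Snrpn* and 1.70-fold for *Snhg14*.

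The more distant genes of the domain did not all follow. *Magel2* stood at 11.0 and 8.29 FPKM in WT and at 14.7 and 8.09 FPKM in promoter KO, with promoter KO 1 again the highest and the genotypes overlapping. *Ndn*, a gene of the same protein family, stood at 36.8 and 36.9 FPKM in WT and at 30.7 and 23.5 FPKM in promoter KO. Again the 2 promoter KO samples were the lower ones (log2 fold change -0.44, adjusted p = 0.104), with -0.25 without promoter KO 2 and -0.63 without promoter KO 1. *Mkrn3*, which encodes a ubiquitin ligase, stood at 4.32 and 3.66 FPKM in WT and at 4.33 and 3.23 FPKM in promoter KO, and the genotypes overlapped. The ubiquitin ligase gene *Ube3a*, imprinted in neurons, stood at 11.2 and 8.07 FPKM in WT and at 12.1 and 12.8 FPKM in promoter KO. The genotypes did not overlap (log2 fold change 0.36, adjusted p = 0.205), with 0.14 without WT 2 and 0.57 without WT 1.

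On chromosome 2, 3 imprinted domains were measured. *Nnat*, which encodes a small membrane protein of developing brain, stood at 8.21 and 16.9 FPKM in WT and at 33.5 and 49.4 FPKM in promoter KO. Both promoter KO samples were above both WT samples, with a mean ± SD (n = 2) of 41.5 ± 11.3 FPKM for promoter KO against 12.5 ± 6.13 FPKM for WT. The log2 fold change was 1.70 ± 0.33 (SE), with a 95% interval from 0.89 to 2.51 and a limma adjusted p of 0.0523. *Blcap*, the gene within whose intron *Nnat* lies on the other strand, stood at 17.9 and 14.8 FPKM in WT and at 13.9 FPKM or less in both promoter KO samples (log2 fold change -0.26, adjusted p = 0.231).

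*Gnas*, which encodes the stimulatory G protein subunit and is imprinted by transcript and tissue, was the most abundant member in WT. It stood at 464 and 549 FPKM in WT and at 224 and 351 FPKM in promoter KO. No WT sample was as low as either promoter KO sample. The log2 fold change was -0.85 ± 0.21 (SE), with a 95% interval from -1.36 to -0.33 and an adjusted p of 0.0711, with -0.52 without promoter KO 1 (adjusted p = 0.187) and -1.17 without promoter KO 2 (adjusted p = 0.0355). *Nespas*, its paternally expressed antisense RNA, stood at 1.42 and 0.955 FPKM in WT and at 3.56 and 1.82 FPKM in promoter KO. Both of its promoter KO values were the higher ones (log2 fold change 0.72, adjusted p = 0.134), and leaving out 1 sample gave 0.38 to 1.07. *Nespas* and *Gnas* overlap on opposite strands, and reads in the overlap cannot be told apart. *Mcts2*, a retrogene in an intron of *H13*, stood at 18.9 and 21.4 FPKM in WT and at 21.2 and 17.2 FPKM in promoter KO, and the genotypes overlapped (log2 fold change -0.07, 95% interval from -0.40 to 0.26, adjusted p = 0.754). *H13*, which encodes a signal peptide peptidase, stood at 23.7 and 22.2 FPKM in WT and at 14.7 and 16.3 FPKM in promoter KO. Both promoter KO samples were lower (log2 fold change -0.54, adjusted p = 0.0537).

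The remaining domains have 1 member each. *Impact*, a regulator of translation under amino acid shortage, stood at 51.2 and 46.7 FPKM in WT and at 70.4 and 60.7 FPKM in promoter KO. The genotypes did not overlap, and the log2 fold change was 0.41 ± 0.11 (SE), with an adjusted p of 0.0742. *Zrsr1*, a retrogene of a splicing factor, stood at 3.45 and 4.13 FPKM in WT and at 4.88 and 3.61 FPKM in promoter KO, and the genotypes overlapped (log2 fold change 0.13, 95% interval from -0.31 to 0.56, adjusted p = 0.659). The zinc finger gene *Plagl1* was below the filter, at 0.0870, 0.258, 0.108 and 0.145 FPKM. The noncoding RNA *Peg13*, within *Trappc9*, stood at 0.0443, 0.0897, 0.0806 and 0.0434 FPKM in WT 1, WT 2, promoter KO 1 and promoter KO 2.

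To set domains side by side, the deviation of each tested gene from its mean over the 4 samples was averaged within a domain, as a description with no test. Domains in which both promoter KO samples were below both WT samples were *Peg3* (-0.47 for promoter KO 1 and -0.32 for promoter KO 2), Mcts2-H13 (-0.12 and -0.19), *Gnas* (-0.02 and -0.04, with WT at 0.05 and 0.01) and *Grb10*, where promoter KO 2 was at 0.10 and both WT samples were at 0.52 or more. Those in which both were above were *Nnat* (0.58 and 1.12), *Impact* (0.31 and 0.10) and Dlk1-Dio3 (0.12 and 0.16). In Dlk1-Dio3, all 4 tested genes had a positive log2 fold change, of which 2 rested on overlapping samples. Without WT 1 that of *Meg3* was -0.10, and without promoter KO 2 it was -0.01. The *Gnas* deviations were small, with its 2 genes on opposite sides. The largest deviations of each sample were -1.33 at *Nnat* and 0.98 at *Grb10* in WT 1, 0.80 at Peg10-Sgce and 0.76 at Igf2-H19 in WT 2, -1.60 at *Grb10* and 0.58 at *Nnat* in promoter KO 1, and 1.12 at *Nnat* and -0.87 at *Mest* in promoter KO 2. Snrpn-Ube3a deviated by 0.30 in promoter KO 1, less than *Peg3* and *Impact* did there. That value is a mean over 5 genes, against 1 gene each for *Peg3* and *Impact*, so it does not give the deviation of *Snrpn* alone.

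**Figure D3:**
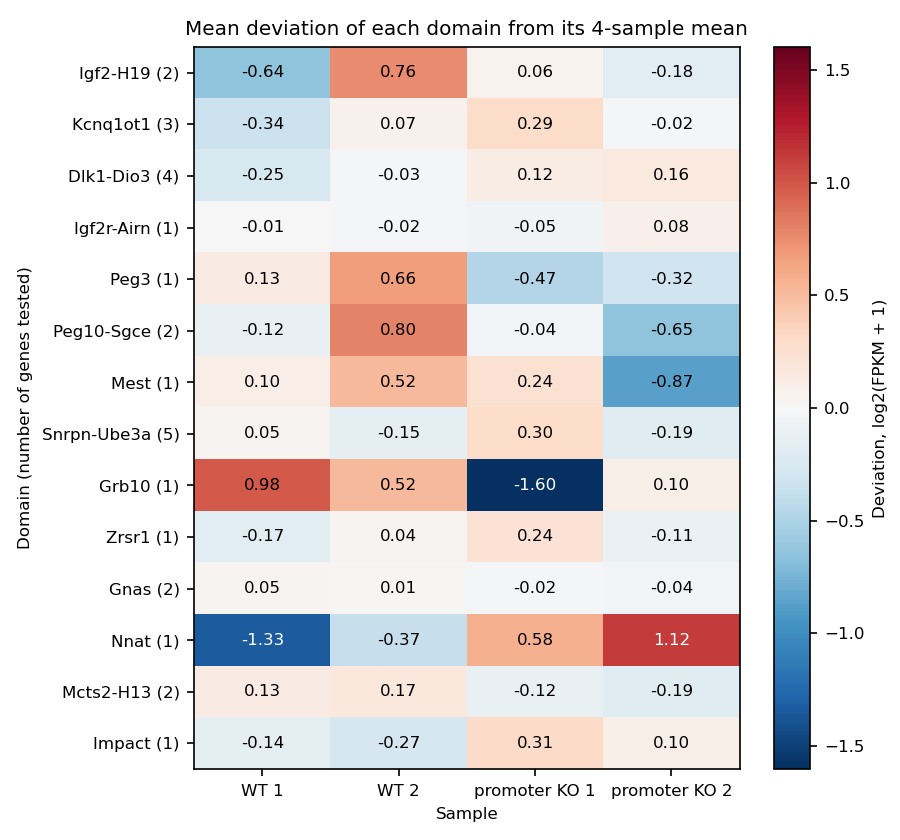
Mean deviation, in log2(FPKM + 1), of the tested genes of each domain (down the side, number of genes in brackets) from their 4-sample mean, by sample. *Nnat* is low in WT 1 (-1.33) and high in promoter KO 2 (1.12), and *Grb10* is low in promoter KO 1 (-1.60).

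Samples of the same genotype were then compared with each other. Between WT 1 and WT 2, 4 of the 27 imprinted genes (14.8%) differed by more than 1 in log2(FPKM + 1), *H19*, *Igf2*, *Phlda2* and *Peg10*, and 1.06% of all tested genes did. All 4 were higher in WT 2, by 3.19-fold, 3.06-fold, 2.33-fold and 2.34-fold in FPKM. Between promoter KO 1 and promoter KO 2, 3 of the 27 (11.1%) differed by as much, *Snrpn*, *Grb10* and *Mest*, against 0.762% of all tested genes. *Snrpn* and *Mest* were higher in promoter KO 1, *Mest* by 3.11-fold, and *Grb10* was higher in promoter KO 2. With 1 sample on each side these differences have no test. The median difference between the WT samples, without its sign, was 0.24 for the imprinted genes and 0.13 for all tested genes. Between the promoter KO samples it was 0.35 and 0.14. In limma the variance of a gene is drawn toward that of genes of similar level. The intervals and p-values of imprinted genes may therefore be too small. Counting noise cannot be computed from FPKM, but the lower of the 2 values compared stood for about 59 fragments (*Mest*), 170 (*H19*) and 400 (*Igf2*), estimated with the longest annotated transcript, and those of the other 4 genes for 640 or more.

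**Figure D4:**
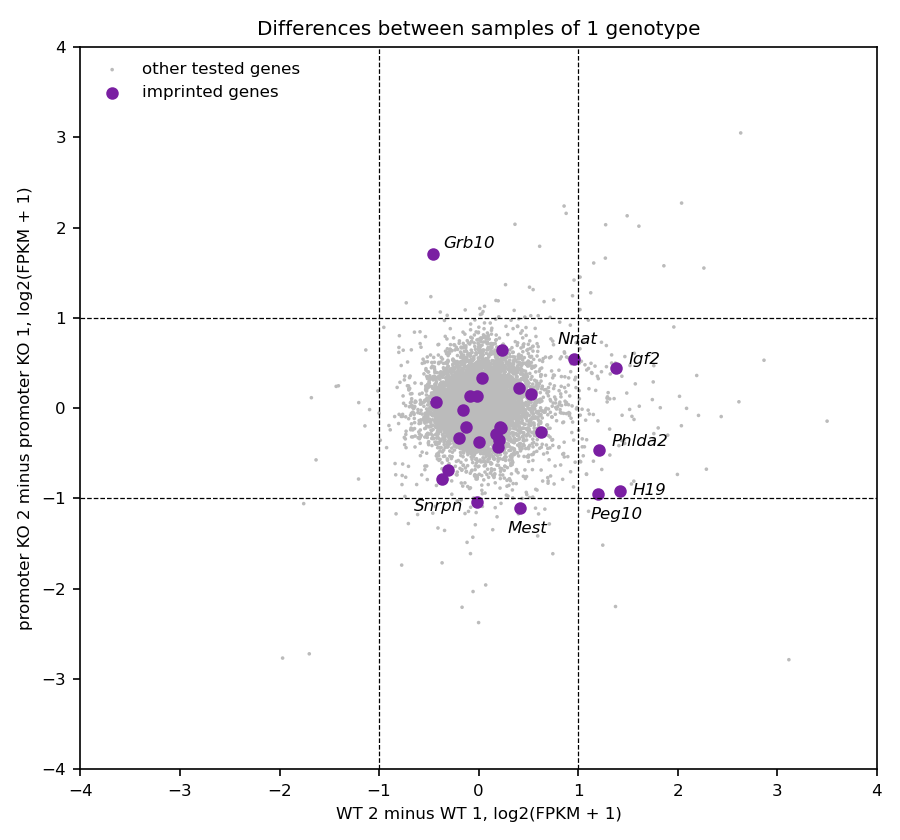
Difference between the 2 WT samples (horizontal) and between the 2 promoter KO samples (vertical) in log2(FPKM + 1) for the 27 imprinted genes (purple) and all other tested genes (grey), with dashed lines at 1 and -1. *H19*, *Igf2*, *Phlda2* and *Peg10* lie to the right of the line at 1 and *Grb10* lies above it, while 1 gene that is not imprinted falls outside the axes.

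**Figure D5:**
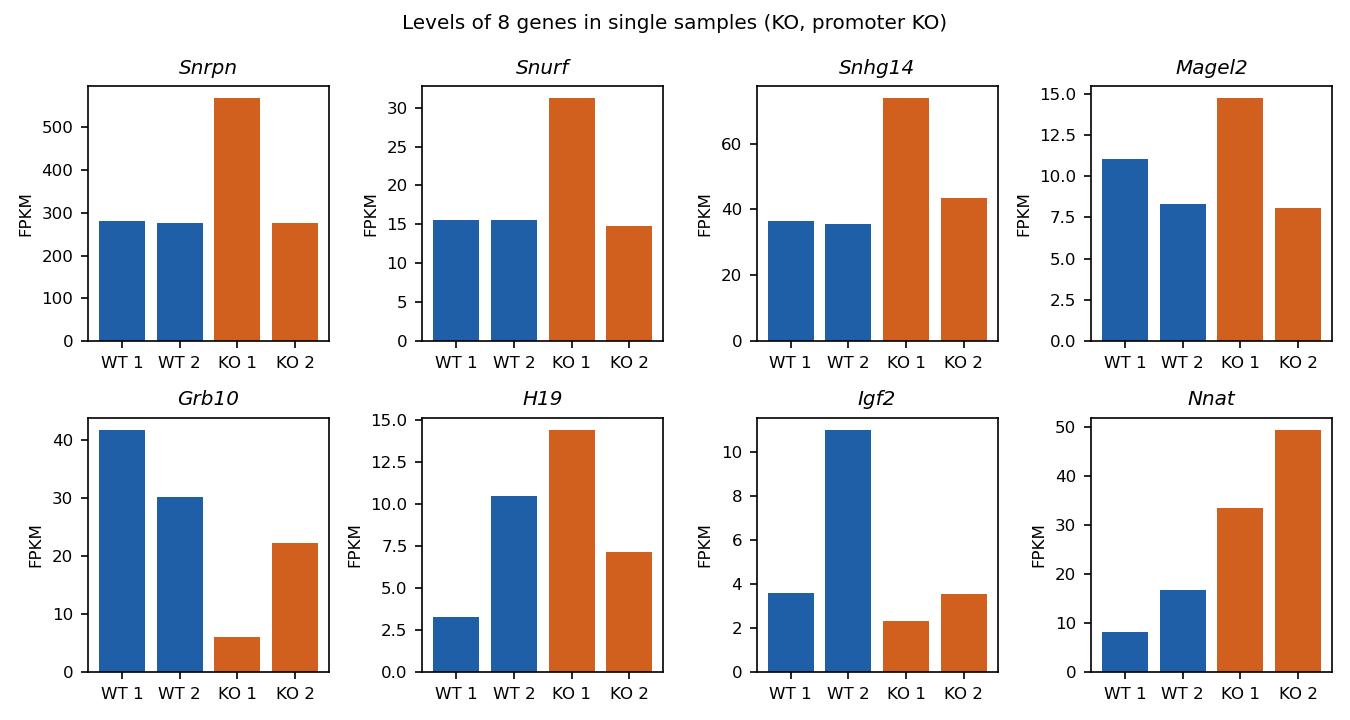
FPKM (vertical axes, from 0, each panel with its own scale) of 8 genes in each sample. *Snrpn*, *Snurf* and *Snhg14* are highest in promoter KO 1, at 569, 31.2 and 73.8 FPKM, *Grb10* is lowest there, at 6.15 FPKM, and *Igf2* is highest in WT 2, at 11.0 FPKM.

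Markers of cell types also differed between these samples. The 12 markers of paraxial and lateral mesoderm summed to 58.0 FPKM in WT 1 and 125 FPKM in WT 2, with promoter KO 1 at 37.8 FPKM and promoter KO 2 at 35.8 FPKM. *Twist1* had the highest mean over the 4 samples, at 21.1, 23.2, 18.1 and 20.6 FPKM, while *Etv2* exceeded it in WT, at 22.5 and 29.8 FPKM, and none was at 0 except 1 in promoter KO 2. *Kdr* stood at 1.67 FPKM in WT 1 and 11.3 FPKM in WT 2, and *Hand1* at 1.27 and 11.3 FPKM. Of the 7 markers tested, 5 (71.4%) differed by more than 1 in log2(FPKM + 1) between the WT samples. For the other lists, the share between the WT samples was 28.6% for trophoblast, 20% for pluripotency, 16.7% for extraembryonic endoderm, 13.3% for mesendoderm and 0 for neural ectoderm and fibroblasts. Between the promoter KO samples it was 33.3% for mesendoderm, 26.7% for pluripotency, 5.56% for extraembryonic endoderm and 0 for the other 4 lists. The imprinted genes stood at 14.8% and 11.1%, and all tested genes at 1.06% and 0.762%. The marker lists had 3 to 18 tested genes each and ran from 0 to 71.4% and from 0 to 33.3%. That range is too wide to show whether the share of the imprinted genes was usual. Between genotypes *Etv2* was lower in promoter KO (adjusted p = 0.0244), and *Kdr*, *Hand1*, *Mesp2* and *Pdgfra* were lower by more than 1 log2 unit without passing the test. The 11 trophoblast markers summed to 191, 232, 74.9 and 118 FPKM, with *Eomes* the most abundant, at 166 and 168 FPKM in WT against 56.3 and 97.1 FPKM in promoter KO, and 2 or 3 of them at 0 in each sample. Of these, *Tfap2c* was lower in promoter KO (adjusted p = 0.0422), and *Hand1*, *Cdx2* and *Eomes* were lower by more than 1 log2 unit without passing. By value, 5 of the 7 tested trophoblast markers were lower and 2, the member *Ascl2* and *Esx1*, were higher. *Cdx2* stood at 5.77 FPKM in WT 1 and 25.4 FPKM in WT 2.

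The 16 pluripotency markers summed to 2852 and 2662 FPKM in WT, against 5040 FPKM for promoter KO 1 and 3827 FPKM for promoter KO 2. The sum is weighted toward abundant markers and does not count pluripotent cells. Among these, *Dppa5a* stood at 743, 792, 1833 and 1146 FPKM and *Utf1* at 262, 297, 828 and 617 FPKM, in the order of samples used above. Whether the sum bears on the level of *Snrpn* was not tested. *Utf1* and *Dnmt3l* passed the test as higher in promoter KO, and *Nr0b1*, *Esrrb*, *Fgf4* and *Tcl1* were higher by more than 1 log2 unit without passing. Of the 15 tested, 14 were higher by value, and *Nanog*, at 140 and 113 FPKM in WT against 94.1 and 98.7 FPKM in promoter KO, was lower (adjusted p = 0.0974). *Nr0b1* stood at 2.09 and 3.67 FPKM in WT, with promoter KO 1 at 26.9 FPKM and promoter KO 2 at 9.43 FPKM. Of 20 markers of extraembryonic endoderm, 18 were tested and 10 were higher in promoter KO, with *Srgn*, *Lama1*, *Amn*, *Col4a2*, *Cubn* and *Dab2* changing most. By value 16 were higher, and *Sox17* and *Foxa1* were lower without passing (adjusted p = 0.0779 and 0.132). The 20 markers summed to 134 and 169 FPKM in WT against 316 and 399 FPKM in promoter KO, none was at 0, and *Sparc*, the most abundant, stood at 46.0, 59.3, 111 and 134 FPKM. Of 10 neural ectoderm markers 4 were tested, and *Tubb3* and *Sox3* were higher in promoter KO, while *Nes* was lower by more than 1 log2 unit without passing. The sum was 145, 129, 157 and 159 FPKM, led by *Otx2* at 71.4, 61.9, 68.1 and 65.4 FPKM. The 8 fibroblast and feeder markers summed to 12.1 to 18.7 FPKM, led by *Thy1*, with 2 at 0 in each sample. The part of these cell types in the levels of the imprinted genes was not tested.

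Read by parental allele, 15 paternally expressed genes were tested and 7 were higher and 8 lower in promoter KO by value, with a median log2 fold change of -0.07. Of 10 maternally expressed genes tested, counting *Ube3a* and *Grb10*, 8 were higher and 2 lower, with a median of 0.25. Over all tested genes, 6036 were higher and 5905 lower. Of the 8, *H19*, *Meg3* and *Igf2r* changed sign when 1 sample was left out, and *Meg3*, *Rian* and *Mirg* belong to 1 domain. Genes without an overlap between genotypes were 8 of the 15 (53.3%) and 5 of the 10 (50%), where 65.3% of all tested genes did not overlap. *Gnas* and *H13*, which are imprinted by transcript, are in neither count.

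Genes inside a domain or within 1000000 bases of it were compared after the members had been seen. Genes in a list of imprinted genes or overlapping a member were left out. Around Igf2-H19, none of 10 tested neighbours differed by more than 1 in log2(FPKM + 1) between the WT samples, and their differences ran from -0.49 to 0.36. Around Peg10-Sgce the 2 tested neighbours were higher in WT 2 by 0.11 and 0.48. Around Snrpn-Ube3a, 2 neighbours were tested, and neither was highest in promoter KO 1. *Gm7367*, at 120, 123, 111 and 111 FPKM, lies inside the domain, between *Snrpn* and *Ndn*. A RefSeq start of *Snrpn* lies upstream of it, so it is not a gene outside the domain. *Chrna7*, at 4.39, 3.40, 3.30 and 4.22 FPKM, lies outside. The tested neighbour of *Grb10*, *Fignl1*, stood at 20.2, 18.7, 23.1 and 20.0 FPKM in the same order of samples. Tested neighbours of *Nnat* numbered 20 and had a median log2 fold change of -0.20, and *Myl9* among them was higher in promoter KO 2 than in promoter KO 1 by 1.34. Between the WT samples, *Atp5e* beside *Gnas* and *Cox4i2* beside Mcts2-H13 were higher in WT 2 by 1.54 and 1.23. Neighbours that passed the test as higher in promoter KO were *Ctsd* around Igf2-H19, *Amn* around Dlk1-Dio3 and *Srxn1* around Mcts2-H13 (limma adjusted p = 0.0233, 0.0208 and 0.0412). *Smo* around *Mest* passed as lower (limma adjusted p = 0.0488). *Amn* and *Smo* lie near the edge of the 1000000 bases, and *Amn* is also one of the extraembryonic endoderm markers above.

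A list of other imprinted genes held 61 genes of the data, of which 35 were tested. *Rhox5*, an X-linked homeobox gene, and *Jade1* were higher in promoter KO (adjusted p = 0.0493 and 0.0408). *Rhox5* stood at 18.7 and 18.8 FPKM in WT, with promoter KO 1 at 88.7 FPKM and promoter KO 2 at 42.9 FPKM, so the promoter KO samples differed from each other as well. *Asb4* was highest in WT 2, at 5.72 FPKM against 1.00 in WT 1 and 0.282 and 0.368 in promoter KO, and did not pass (adjusted p = 0.132). *Ddc*, which lies beside *Grb10*, stood at 0.462 and 0.364 FPKM in WT and at 2.35 and 1.48 FPKM in promoter KO (adjusted p = 0.0509). *Xlr3b* stood at 0.403 and 1.84 FPKM in WT and at 1.91 and 5.19 FPKM in promoter KO (adjusted p = 0.170). Genotypes did not overlap in 21 of the 35 genes (60%), against 65.3% of all tested genes. Between the WT samples, 3 of the 35 (8.57%) differed by more than 1 in log2(FPKM + 1), and 3 (8.57%) did so between the promoter KO samples. For the 27 tested members these shares were 14.8% and 11.1%.

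Of 17 genes that maintain imprints, all were tested and 1 passed. *Zfp57* stood at 19.1 and 24.4 FPKM in WT and at 43.1 and 35.5 FPKM in promoter KO, without overlap (log2 fold change 0.83, adjusted p = 0.0493). Its cofactor *Trim28*, the most abundant of them, stood at 561, 539, 717 and 583 FPKM (adjusted p = 0.212), and *Zfp42* was higher by 1.01 without passing (adjusted p = 0.110). Of 9 tested genes of DNA methylation and demethylation, 2 were higher in promoter KO. *Dnmt3l*, a cofactor of the de novo methyltransferases, stood at 62.0 and 54.8 FPKM in WT, with promoter KO 1 at 319 FPKM and promoter KO 2 at 157 FPKM (adjusted p = 0.0422). *Dnmt3a* stood at 28.8 and 23.6 FPKM in WT and at 50.6 and 42.9 FPKM in promoter KO (adjusted p = 0.0442). *Dnmt1*, which copies methylation at replication, stood at 68.0, 63.9, 77.2 and 69.5 FPKM and did not pass (adjusted p = 0.309).

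Of 14 tested genes of the IGF axis, which include the members *Igf2*, *H19*, *Igf2r* and *Grb10*, 2 were lower in promoter KO. *Igfbp4* stood at 26.0 and 52.5 FPKM in WT and at 10.8 and 10.7 FPKM in promoter KO (adjusted p = 0.0472), and *Igf2bp2*, which encodes an *Igf2* mRNA binding protein, at 34.0 and 37.4 FPKM and at 21.9 and 20.1 FPKM (adjusted p = 0.0372). *Igfbp3* stood at 66.6 and 144 FPKM in WT and at 26.0 and 35.7 FPKM in promoter KO (adjusted p = 0.0583). Of a list of 8 cell cycle genes, p57 itself among them, 1 was higher in promoter KO, the related inhibitor gene *Cdkn1a*, at 43.8 and 49.5 FPKM in WT against 82.5 and 83.3 FPKM in promoter KO (adjusted p = 0.0280).

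Several members share sequence with other genes. *Nespas* with *Gnas*, *Igf2os* with *Igf2*, *Airn* with *Igf2r*, *Kcnq1ot1* with *Kcnq1*, *Nnat* with *Blcap*, *Zrsr1* with *Commd1* and *Ube3a* with *Snhg14* overlap on opposite strands. So do *Mest* with *Copg2*, *Airn* with *Mas1* and *Usp29* with *Zim3*. No source used here says whether strands were counted separately, so reads in these overlaps cannot be told apart. *Snrpn* with *Snurf*, *Mcts2* with *H13* and *Peg13* with *Trappc9* overlap on the same strand. Near-identical copies elsewhere were found for *Kcnq1ot1*, *Meg3*, *Usp29* and *Snrpn*, whose values are uncertain to that extent. The data also list 34 miRNA and small nucleolar RNA entries that lie inside members, such as *Mir675* in *H19* and *Mir335* in *Mest*. All 34 were listed at 0 in all 4 samples, as were 99.4% of the 1150 miRNA entries, so a 0 there does not measure these short RNAs.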

How the data were processed

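RNA of day 3 EBs had been sequenced, 2 samples for WT and 2 for promoter KO, grouped by the genotype in the labels. The values the authors deposited were taken as FPKM, since Cufflinks made them, although the methods name RPKM. The methods name TopHat, Cufflinks and the GENCODE M4 annotation, while the submitters' processing notes name HISAT2 2.1.0, Cufflinks, Cuffnorm and mm10. Here, log2(FPKM + 1) was tested for genotype with limma 3.58.1 in R 4.3.3 (eBayes with an intensity trend) in the 11941 genes that reached 1 FPKM in 2 or more of the 4 samples, with Benjamini-Hochberg adjustment over all of them and a threshold of 0.05. The procedure was tested on simulated data. Members and lists were chosen with earlier results of these data known.

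Each member was named at least once. An SE, a 95% interval or both were given for members with an adjusted p under 0.05 or an absolute log2 fold change of at least 1. The same was done for the first tested gene of each domain. Of the lists, genes past the same limits were named, at most 6 per list. Coordinates and overlaps came from GENCODE M21 (GRCm38), promoters from RefSeq, and near-identical copies (95% identity over 200 bases) from BLAST 2.17.0. Tables and figures were made with Python 3.11.15, pandas 2.3.3 and matplotlib 3.10.9.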

Additional observations from a re-analysis of the deposited data

How the results depend on the processing

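The count of imprinted genes called was 0 under a pseudocount of 0.1, no filter, a mean filter of 5 FPKM, no trend, median centring and quantile normalization. It was 2 (*Nnat* and *Grb10*) at a fold change over 2 with an unadjusted p under 0.05, where 362 of all 11941 genes passed, and 0 to 3 when 1 sample was left out, where the lone sample was assumed to vary like the other genotype. With the replicate block, 5 imprinted genes (*Gnas*, *H13*, *Impact*, *Nnat* and *Peg3*) and 1202 of all genes were called. Whether same-numbered samples were paired is not stated, and the correlation of their deviations was 0.0348. The count of all genes called, 427, became 0 with no filter, 203 at a mean of 5 FPKM, 82 without the trend, 283 with median centring and 0 to 486 with 1 sample left out. The cause was not tested. Non-overlapping imprinted genes, 15 of 27, numbered 19 to 24 (70.4% to 88.9%) with 1 sample left out, an alternative chosen after seeing the data. Of all tested genes, 80.6% to 85% did not overlap then. Without promoter KO 1 the imprinted share was the higher, 88.9% against 80.6%. Without WT 1, WT 2 or promoter KO 2 it was the lower, at 70.4%, 74.1% and 77.8% against 84%, 80.9% and 85%. Of 291 single-gene values, 266 kept their direction and side of the threshold, 9 passed it and 16 changed sign, the last 16 all with 1 sample left out. Their log2 fold changes ran from -0.0288 to 1.39 for *H19*, -0.72 to 0.49 for *Phlda2*, -0.10 to 0.31 for *Meg3*, -0.0392 to 0.0977 for *Igf2r*, -0.98 to 0.23 for *Peg10*, -0.0168 to 1.03 for *Snrpn*, -0.22 to 0.57 for *Magel2*, -0.23 to 0.10 for *Mkrn3*, -0.0496 to 0.30 for *Zrsr1* and -0.21 to 0.0739 for *Mcts2*. For the 10 genes below the filter, about 2.5 to 150 fragments at most stood behind a value. The tested *Nespas* and *Mest* had as few as about 43 and 59.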
